A study of Mus musculus with 4 samples.

Results

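The Stra8-high germ barcodes are the cell barcodes of 4 testis libraries that carry germ cell RNA, little RNA of later spermatocytes or of Sertoli cells, and at least 5 unique molecular identifiers (UMIs, single counted RNA molecules) of Stra8. A barcode also needed at least 500 detected genes, at most 20% mitochondrial UMIs, at least 2 UMIs of the germ cell genes Ddx4 and Dazl together, at most 4 UMIs of Ldhc and Fabp9 together, and less than 0.3% of its UMIs from the Sertoli cell genes Aard, Cst9 and Cldn11. This left 4667 of 24851 deposited barcodes, which is 19.7% of the 23670 barcodes that passed the filter on genes and mitochondrial UMIs and 40.6% of the 11501 germ barcodes, meaning those that met the rest of the rule at any Stra8 count. All 4 libraries are single-cell RNA sequencing of testis from C57BL/6 mice with an Acr-Gfp transgene, a green fluorescent protein gene driven by the promoter of the sperm protease gene Acr. One library each came from testes at 9 days postpartum (dpp) and at 14 dpp without culture, and one each from testes taken at 7 dpp and cut into fragments that were held for 2 or 7 days on an agarose block in AlbuMAX-supplemented α-MEM, covered by a PDMS (silicone) ceiling chip. The start age plus the days in culture makes 9 dpp the partner of the 2-day culture and 14 dpp the partner of the 7-day culture. There is 1 library per group and the number of animals in each is not given in the sources used here, so no difference between groups has a replicate check or a test. Wherever 4 values follow each other, they are in the order 2-day culture, 9 dpp, 7-day culture and 14 dpp.

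STRA8 is induced in germ cells by retinoic acid, a derivative of vitamin A. In the postnatal testis it is present when spermatogonia begin to differentiate and again, at a higher level, in preleptotene cells, which carry out the last round of DNA replication before meiosis. There STRA8 acts with its partner MEIOSIN (listed in the files as Gm4969) on the promoters of meiotic genes, among them genes of the cohesin ring, the chromosome axis and the machinery that makes and repairs DNA breaks. The barcodes were proposed as preleptotene cells, with Stra8, M1ap and Prdm9 as markers. M1ap encodes a protein needed for progress through meiosis, and Prdm9 encodes the histone methyltransferase that places meiotic recombination sites.

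Motif CNCCTCAG, known as a binding motif of STRA8 with MEIOSIN, was searched on both strands of the RefSeq promoter windows, which run from 250 bases before to 50 bases after each transcription start on GRCm38.p6. The stretches shown here belong to marker, axis and recombination genes whose RNA is described below. They are upstream of the start, written 5′ to 3′ on the strand of the gene, and the capitals mark the motif on the strand of the gene or on the opposite strand, where it reads CTGAGGNG. The motif began 111 bases before the start in M1ap, 41 in Prdm9, 39 in Syce2, 109 in Hormad2, 66 in Hfm1 and 82 in Msh5.
M1ap (chr6:82946785-82946844, plus strand): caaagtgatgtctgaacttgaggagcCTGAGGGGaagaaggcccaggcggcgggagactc
Prdm9 (chr17:15564362-15564421, minus strand): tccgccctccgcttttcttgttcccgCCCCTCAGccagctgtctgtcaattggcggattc
Syce2 (chr8:84872193-84872252, plus strand): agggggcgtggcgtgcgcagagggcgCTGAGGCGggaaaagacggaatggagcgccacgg
Hormad2 (chr11:4441158-4441217, minus strand): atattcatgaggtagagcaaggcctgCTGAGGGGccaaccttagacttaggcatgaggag
Hfm1 (chr5:106925923-106925982, minus strand): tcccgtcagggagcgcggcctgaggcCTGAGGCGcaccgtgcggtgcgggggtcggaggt
Msh5 (chr17:35046671-35046730, minus strand): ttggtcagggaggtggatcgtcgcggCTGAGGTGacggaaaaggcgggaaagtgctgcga
Of all 32851 windows, 2609 (7.94%) held the motif, and of the 12748 windows of genes measured in the Stra8-high barcodes, 1189 (9.33%) did. For these measured genes, 9992 of 12907 had a window. Among windows of the genes past 2-fold higher on the meiotic side in all 4 libraries, a split of the barcodes described below, 139 of 752 (18.5%) held it. Among windows of the genes past 2-fold lower there, 77 of 1143 (6.74%) held it. By list, the motif was found in 5 of 20 windows of axis and synapsis genes, 3 of 22 of recombination genes, 5 of 34 of DNA replication genes, 2 of 22 of mitosis genes, 3 of 10 of meiotic entry genes and 5 of 18 (27.8%) of genes of differentiating spermatogonia. Of the genes past 2-fold from germ barcodes without a Stra8 UMI in all 4 libraries, 1 of 30 windows (3.33%) held it for the higher genes and 6 of 75 (8%) for the lower. The windows of Stra8, Rec8, Cyp26a1, Kit and Meioc did not contain these letters, and Gm4969 had no window in the table. A match describes the letters and not a bound site.

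The depth of the libraries differed. The Stra8-high barcodes had a median of 5193, 10438, 7730 and 6313 UMIs, so a fixed count of Stra8 UMIs was a stricter demand in the shallow 2-day culture library. Their UMIs summed to 7998223, 12855544, 8548943 and 13386461. Between any 2 libraries, 0 to 5 of the barcodes' sequences were shared, against 35 to 86 over all deposited barcodes. A doublet caller marked 75, 24, 25 and 46 of the Stra8-high barcodes, 170 in all, and they were kept. The protocol text for library preparation speaks of female gonads whereas the tissue label is testis, and the labels do not resolve this.

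Among germ barcodes and by the rule's count, the 2-day culture had the largest share of Stra8-high barcodes. They numbered 1369 of 2893 germ barcodes in the 2-day culture, or 47.3% (exact Clopper-Pearson 95% interval 45.5% to 49.2%, counting error only). At 9 dpp they numbered 1018 of 2635, or 38.6% (36.8% to 40.5%). In the 7-day culture they numbered 896 of 2337, or 38.3% (36.4% to 40.3%), and at 14 dpp 1384 of 3636, or 38.1% (36.5% to 39.7%). The last 3 shares overlap within counting error. The log2 ratio of the shares was 0.29 for the 2-day culture over 9 dpp (Katz interval 0.20 to 0.38) and 0.01 for the 7-day culture over 14 dpp (-0.08 to 0.11). When each germ barcode was thinned to 2000 UMIs and at least 2 of these had to be Stra8, the shares were 60.7%, 29.7%, 35.7% and 33.8%, with 374, 25, 80 and 49 shallower barcodes left out. The first log2 ratio was then 1.03. Thinning changed the depth, the count asked for and the set of barcodes together, and the share of each in this value was not tested. With a minimum of 3 raw Stra8 UMIs the ratio was 0.48, with a minimum of 8 it was -0.13, and over all kept barcodes rather than germ barcodes it was -0.00. The direction of this difference therefore depended on the number of raw Stra8 UMIs asked for.

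**Figure D1:**
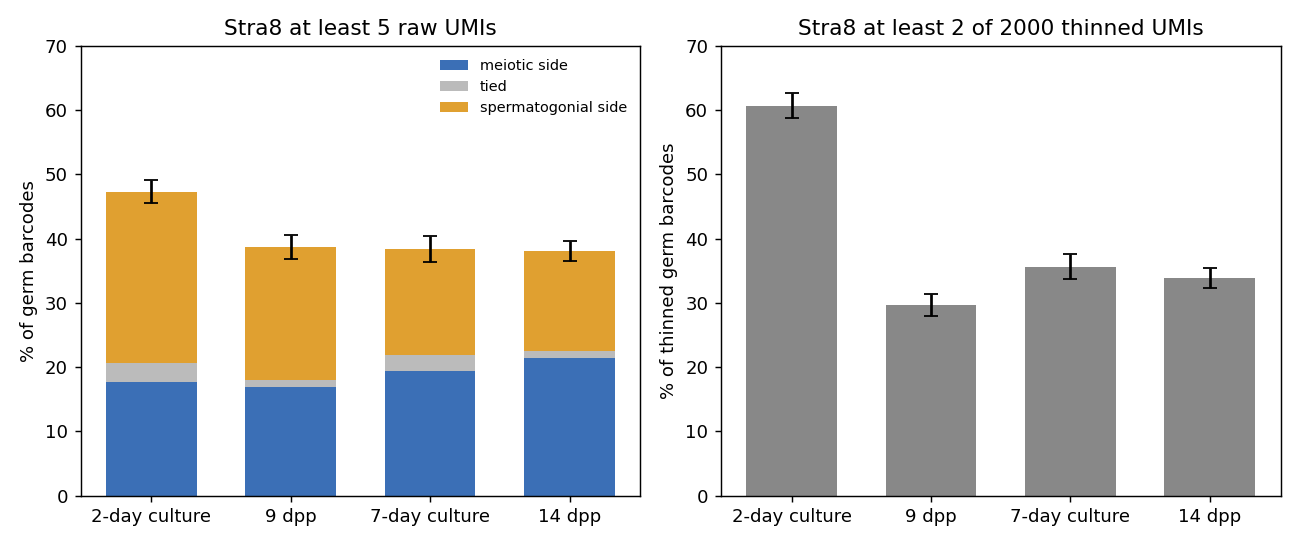
Share of germ barcodes that are Stra8-high, in percent, by raw count (left, stacked by side, see the split on 8 genes) and after thinning to 2000 UMIs (right), for 4 libraries with 1 library per bar; error bars are exact 95% intervals for counting error. The 2-day culture stands at 47.3% by raw count and 60.7% after thinning, above the other libraries in both panels.

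Stra8 itself, the gene of the rule, lies at chr6:34920163-34939344 on the plus strand (GENCODE M21, GRCm38). The median count was 8, 14, 10 and 12 UMIs per barcode and the highest count 39, 94, 75 and 71. Per 10000 UMIs of a barcode the median was 17.0, 14.1, 12.7 and 16.4, so the libraries lay closer together on this scale than by count. Non-germ barcodes were looked at for the background of free RNA. Of barcodes with at least 20 UMIs of stromal collagen genes and none of the germ genes, 4.68%, 3.71%, 1.19% and 2.59% had a Stra8 UMI, and 1 of 1388 in the 2-day culture and 0 in the other libraries had 5 or more. Asking for no germ gene UMI also leaves out barcodes that took up free germ cell RNA, so these shares may be too low. Sertoli barcodes, taken as those with at least 1% of UMIs from the 3 Sertoli genes of the rule, had 5 or more Stra8 UMIs in 0.459%, 4.91%, 1.68% and 5.53%, at medians of 2484, 14500, 9432 and 9897 UMIs.

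The threshold of 5 Stra8 UMIs cut through a continuous range. Barcodes with 4 UMIs had 194, 145, 122 and 147 UMIs of M1ap per 1000000 UMIs (counts scaled to this total, CPM), and those with 5 had 215, 124, 135 and 153 CPM. Their share on the meiotic side of the split below was 33.2%, 27.2%, 35.7% and 45.2% at 4 UMIs and 37.3%, 24.5%, 35.5% and 49.6% at 5 UMIs. Values on either side of the threshold were thus within a few percentage points of each other. Below the threshold the libraries differed in kind: among barcodes without a Stra8 UMI, 45.4%, 8.66%, 64.4% and 40.3% were on the meiotic side.

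**Figure D2:**
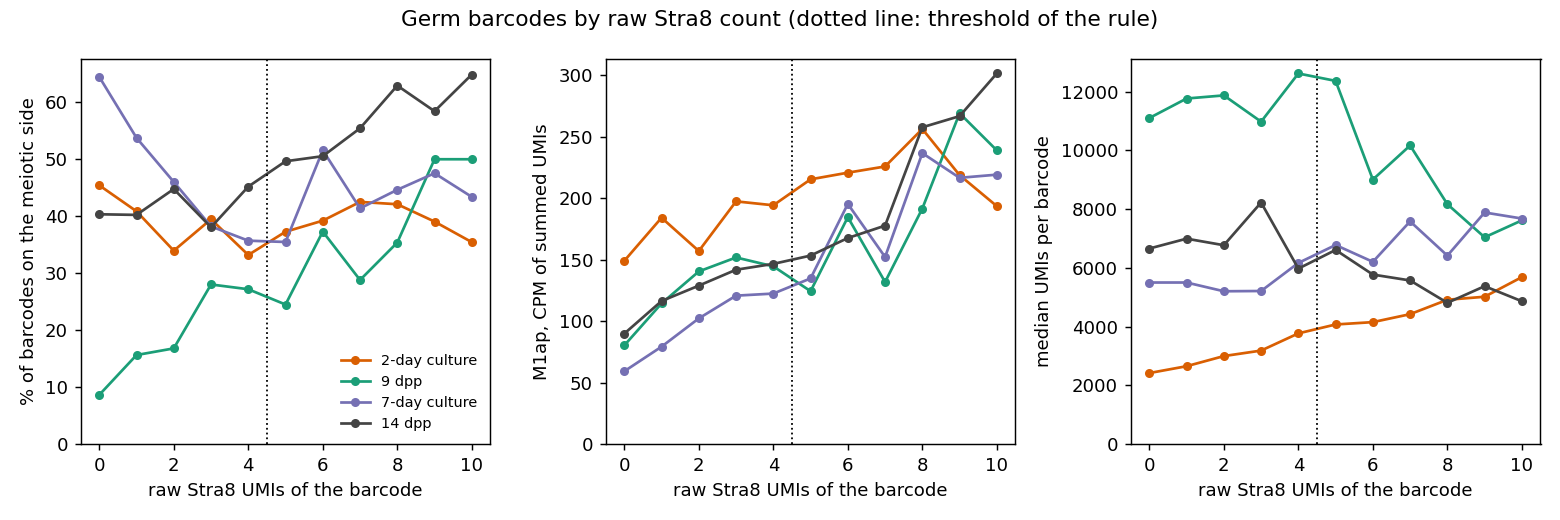
Germ barcodes grouped by raw Stra8 count from 0 to 10 (x axis), with the share on the meiotic side in percent (left), M1ap in CPM of summed UMIs (middle) and the median UMIs per barcode (right), 1 line per library; the dotted line is the threshold of the rule. Values at 4 and 5 UMIs lie close together in every library, and the 9 dpp library has the fewest meiotic-side barcodes at 0 Stra8 UMIs (8.66%).

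The label of preleptotene cells held for part of the barcodes only. M1ap was at 225, 251, 270.2 and 259.9 CPM in the Stra8-high barcodes against 149, 80.4, 59.3 and 89.9 CPM in germ barcodes without a Stra8 UMI, higher in 4 of 4 libraries. Prdm9 was at 39.6, 32.8, 55.3 and 53.2 CPM against 42.3, 4.97, 16.6 and 22.1 CPM, lower in the 2-day culture and higher in the other 3 libraries. Spermatogonial genes were present at the same time. Kit, the stem cell factor receptor of differentiating spermatogonia, was at 43.9, 46.7, 32 and 49.1 CPM against 7.40, 18.9, 8.82 and 20.01 CPM. Sohlh1, a transcription factor of spermatogonial differentiation, was at 236, 253, 139.9 and 214 CPM against 105, 236, 68.7 and 168 CPM. It was higher in 4 of 4 libraries, though by little at 9 dpp. Of germ barcodes with at least 2 Kit UMIs, 82.9% (58 of 70), 49.6% (140 of 282), 71.6% (48 of 67) and 63.4% (144 of 227) were Stra8-high. So the rule took in Kit-positive barcodes as well as barcodes with meiotic RNA, and the set is called here by its rule.

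To describe this mixture, each barcode was placed by its UMIs of 8 genes, a split chosen after seeing the data. A barcode with more UMIs of M1ap, Prdm9, Meioc and Dmc1 than of Sohlh1, Dnmt3b, Dmrt1 and Kit is said to be on the meiotic side, and one with fewer on the spermatogonial side. The meiotic side held 2189 barcodes (46.9%) and the spermatogonial side 2265 (48.5%), with 213 ties. The sides are ranges of a score and not cell types: 611 barcodes (13.1%) lay within 1 UMI of the cut. The meiotic side made up 37.4%, 43.7%, 50.4% and 56.4% of the Stra8-high barcodes and the spermatogonial side 56.4%, 53.4%, 42.7% and 40.9%. The spermatogonial side was thus the larger in the 2-day culture and at 9 dpp, and the meiotic side in the 7-day culture and at 14 dpp, by raw count. As a share of germ barcodes the meiotic side was 17.7%, 16.9%, 19.3% and 21.5%, and the spermatogonial side 26.7%, 20.6%, 16.4% and 15.6%. The log2 ratio of the 2-day culture over 9 dpp was 0.07 (-0.10 to 0.23) for the meiotic side and 0.37 (0.23 to 0.51) for the spermatogonial side. Among barcodes picked after thinning, the meiotic side was 40.6%, 53.9%, 55.2% and 67.0% and the spermatogonial side 51.0%, 42.8%, 36.5% and 29.6%. At 9 dpp the order of the sides thus turned over after thinning.

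Barcodes of the 2 sides differed in RNA content. The meiotic side had a median of 3459, 6557, 6511 and 4457 UMIs and the spermatogonial side 6772, 17466, 11023 and 15981 UMIs, the higher value on the spermatogonial side in each library. Median Stra8 per 10000 UMIs was 24.3, 24.7, 18.1 and 27.0 on the meiotic side and 13.9, 9.87, 9.74 and 9.49 on the spermatogonial side. The raw Stra8 count showed no such order, with a median of 8, 15, 11 and 12 UMIs on the meiotic side and 9, 13, 9 and 13 UMIs on the spermatogonial side. The rule's minimum of 5 UMIs asks for a larger Stra8 share in a shallow barcode, so this share is tied to the rule and to depth. On the meiotic side the median barcode had none of the 20 undifferentiated spermatogonia genes in any library, and 100, 88.6, 91.6 and 116 UMIs per 10000 from the 20 axis and synapsis genes. On the spermatogonial side these medians were 2.79, 3.84, 1.79 and 3.13 for the first list and 38.2, 29.5, 35.0 and 30.9 for the second. Of pachytene genes, a later stage, the median was 2.00 to 2.32 on the meiotic side and 2.50 to 2.96 on the spermatogonial side. A median of none in the shallower barcodes of the meiotic side does not mean that the RNA was absent. In summed UMIs the undifferentiated list was at 113, 71.5, 77.4 and 70.2 CPM on the meiotic side. On the spermatogonial side it was at 351, 556, 394 and 454 CPM.

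Between the sides, 756 of 12891 genes were past 2-fold higher on the meiotic side in all 4 libraries (5.86%) and 1139 past 2-fold lower (8.84%). By any amount, 3855 genes (29.9%) were higher and 5387 (41.8%) lower in all 4. The 8 genes of the split and those of the rule are left out of these counts. Ratios are of CPM + 1 on a log2 scale over genes with at least 50 UMIs in the barcodes compared, and the median gene was at -0.12 to -0.18, so most genes were slightly lower on the meiotic side. A list median between the sides is the median over its genes of the mean of the 4 libraries. Because the split used RNA of the same barcodes, all values that follow are descriptions. No list median between the sides given here moved when genes without a UMI on 1 side were set at a floor of 3 UMIs, except that of the inflammation list, which went from 0.05 to 0.08.

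Genes that act at the entry into meiosis were higher on the meiotic side. Of 10 entry genes left after the split genes were taken out, 6 were past 2-fold higher in all 4 libraries and 8 higher by any amount, with a median log2 ratio of 1.67. Gm4969, which encodes MEIOSIN, was low throughout but was at 10.4, 23.7, 15.7 and 37.8 CPM on the meiotic side and 3.56, 3.08, 1.91 and 3.41 CPM on the spermatogonial side. Ythdc2, an RNA helicase that works with MEIOC to end the mitotic programme, was at 88.9, 97.4, 119 and 115 CPM against 25.5, 24.5, 43.8 and 26.4 CPM. Each of these genes was higher on the meiotic side in every library. Taf4b, a subunit of a general transcription factor that is enriched in germ cells, was at 114, 138, 107 and 164 CPM against 44.5, 45.8, 49.7 and 36.5 CPM. Rbm46, an RNA-binding protein needed for meiotic entry, was between 131 and 212 CPM on the meiotic side and between 146 and 207 CPM on the spermatogonial side, with no separation. Meioc was used in the split, as were M1ap, Prdm9 and Dmc1, so their levels say nothing further.

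Axis, cohesin and synapsis genes were higher on the meiotic side. Of 20 genes, 13 were past 2-fold higher on the meiotic side in all 4 libraries, 18 were higher by any amount and 1 was lower, with a median log2 ratio of 1.92. Rec8 (chr14:55618037-55625395, plus strand), the kleisin subunit that replaces RAD21 in meiotic cohesin, was at 65.5, 97.1, 65.6 and 66.8 CPM on the meiotic side and 23.7, 19.6, 21.2 and 14.3 CPM on the spermatogonial side. Rad21, the mitotic kleisin, ran the opposite way, with 55.1, 48.1, 51.3 and 26.1 CPM against 169, 146, 146 and 134 CPM. Rec8 RNA was thus higher and Rad21 RNA lower on the meiotic side in every library, with RNA of both present there. Rad21l, a meiosis-specific kleisin, was at 15.4, 16, 22.9 and 43.2 CPM against 3.03, 1.49, 2.12 and 1.43 CPM, and Stag3, the meiotic cohesin subunit that binds these kleisins, at 122, 178, 116 and 160.2 CPM against 33.9, 39.7, 37.5 and 28.8 CPM. Smc1b, the meiotic form of a cohesin ATPase, was at 1384, 1314, 1613 and 1767 CPM against 627, 347, 641 and 457 CPM, while its mitotic form Smc1a was at 43.2, 50.5, 74.2 and 46.1 CPM against 34, 36, 61 and 44 CPM. The meiotic form thus differed more than 2-fold in each library and the mitotic form less. Sycp3, a core axis protein, was at 2315, 1796, 1836 and 2132 CPM against 613, 408, 416 and 376 CPM. Sycp1, which forms the zipper between paired axes, was at 1122, 1094, 1222 and 1435 CPM against 296, 278, 359.6 and 268 CPM. Hormad1, an axis protein that marks unsynapsed chromosomes, was at 486, 531, 365 and 519 CPM against 99.2, 67.7, 75.4 and 60.9 CPM. Syce2, a central element protein of the synaptonemal complex whose promoter stretch is printed above, was at 1313, 988, 1154 and 1141 CPM against 742, 593, 576 and 586 CPM, a smaller separation than for the axis genes. Hormad2, also printed above, was at 79.4, 92.8, 73.3 and 95.8 CPM against 16.6, 17.8, 18 and 14.6 CPM.

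Recombination genes followed. Of 23 genes, 12 were past 2-fold higher on the meiotic side in all 4 libraries, 21 higher by any amount and none lower, with a median of 1.46. Among genes for the making of DNA breaks, Mei1 was at 77.9, 73.7, 53.1 and 65.6 CPM on the meiotic side and 20.5, 11.9, 17.4 and 10.5 CPM on the spermatogonial side. Ccdc36, which encodes the axis-bound break factor IHO1, was at 65, 67.2, 62 and 73.2 CPM against 11.6, 14.3, 14.4 and 11 CPM. Spo11, the break enzyme itself, was still low, with 9.93, 6.47, 13.9 and 12.4 CPM against 2.49, 4.25, 1.69 and 4.73 CPM. In germ barcodes without a Stra8 UMI it was at 63.5, 5.08, 48.4 and 31.4 CPM, above the meiotic side in the 3 libraries other than 9 dpp. Among strand exchange and repair genes, Brca2 was at 173, 153, 272 and 301 CPM against 51, 51.7, 103 and 78.4 CPM. Meiob, a single-strand DNA binding protein of meiosis, was at 73.5, 45.3, 69.7 and 80.2 CPM against 7.13, 2.23, 4.23 and 4.40 CPM, and at 115, 4.64, 230.3 and 93.8 CPM in germ barcodes without a Stra8 UMI. Msh5, a MutS homologue that stabilizes crossover intermediates, was at 67, 63.5, 56.7 and 76.3 CPM against 7.30, 6.05, 6.56 and 5.61 CPM, and the helicase gene Hfm1 at 34.2, 26.2, 39.2 and 61.9 CPM against 9.98, 4.99, 7.20 and 5.39 CPM. Zcwpw1, a reader of the histone marks that PRDM9 writes, was at 325, 410.5, 380.1 and 542 CPM against 139, 157, 142 and 150.2 CPM.

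Genes of DNA replication and of mitosis split rather than moving together. Of 35 replication genes, 21 were higher and 11 lower on the meiotic side in all 4 libraries, with 5 and 1 past 2-fold and a median of 0.22. Ccne2, a cyclin that starts S phase, was at 384, 597, 310.1 and 532 CPM on the meiotic side and 50.1, 52.7, 67.7 and 54.4 CPM on the spermatogonial side. Rrm2, the subunit of ribonucleotide reductase that limits the supply of DNA precursors, was at 391, 414, 301 and 425 CPM against 84.3, 64.1, 100.3 and 61.4 CPM. Both were highest in the in vivo libraries on the meiotic side. Cdt1, which loads the replicative helicase in G1, was lower there, at 59.1, 45.9, 49.2 and 24.6 CPM against 127, 122, 101 and 99 CPM, as was the helicase subunit Mcm7 at 109, 138, 142 and 104 CPM against 205, 255, 214 and 277 CPM. Of 25 G2 and mitosis genes, 5 were higher and 16 lower in all 4 libraries, with 2 and 2 past 2-fold and a median of -0.41. Ccnb1, the mitotic cyclin, was at 143, 138, 129 and 68.8 CPM against 477, 396, 447 and 383 CPM. Aurkb, a kinase of chromosome segregation, was at 49.6, 33.6, 49.5 and 19.3 CPM against 116, 108, 105 and 99.3 CPM. Top2a and Bub1 ran against the list: Top2a, a topoisomerase, was at 476, 568, 621 and 636 CPM against 247, 252, 323 and 277 CPM. Among the other cyclins, Ccnd2, a G1 cyclin of spermatogonia, was at 18.4, 11.1, 8.90 and 16.8 CPM against 171, 260.4, 106 and 217 CPM, and Ccnb3, a cyclin of early meiotic prophase, at 31.8, 25.6, 38.6 and 39.99 CPM against 3.38, 3.72, 6.77 and 3.52 CPM. The CDK inhibitor gene Cdkn2c was at 94.8, 64.1, 66.5 and 87.3 CPM against 9.80, 6.48, 14 and 9.36 CPM.

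**Figure D3:**
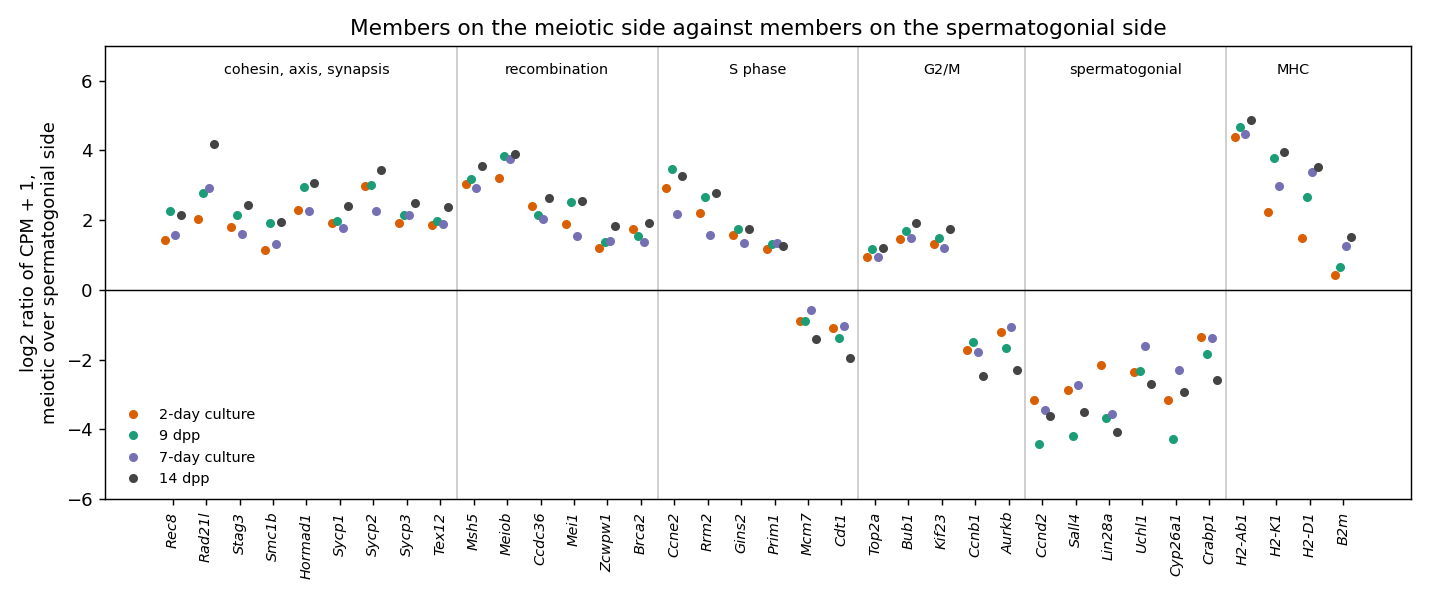
Log2 ratio of CPM + 1, meiotic side over spermatogonial side of the Stra8-high barcodes, for genes of 6 groups (x axis), 1 point per library; these genes were picked from the lists as examples after their values were seen. Meiotic cohesin, axis and recombination genes lie above 0 in all 4 libraries and Ccnb1, Aurkb and the spermatogonial genes below 0, while S phase genes lie on both sides.

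Spermatogonial genes were lower on the meiotic side. Of 17 measured undifferentiated spermatogonia genes, all 17 were lower in all 4 libraries, 10 past 2-fold, with a median of -1.78. Sall4, a zinc finger transcription factor of spermatogonia, was at 5.96, 3.08, 4.45 and 4.39 CPM on the meiotic side and 50.1, 73.6, 35.1 and 60.8 CPM on the spermatogonial side. Zbtb16, which encodes PLZF, a factor of progenitor maintenance, was at 6.95, 3.70, 4.75 and 5.12 CPM against 36.9, 58.7, 56.1 and 59 CPM. Lin28a, an RNA-binding protein of progenitors, was at 2.48, 1.85, 1.19 and 1.46 CPM against 14.6, 35.2, 24.8 and 40.7 CPM. Each of these genes was lower on the meiotic side in every library, as were 41.8% of all genes by any amount and 8.84% past 2-fold. The split itself used spermatogonial genes, so this direction was in part built in. Of 12 genes of differentiating spermatogonia left after the split genes, 6 were higher and 4 lower, with a median of 0.31, and the members went different ways. Uchl1, a ubiquitin hydrolase of spermatogonia, was at 202, 231, 376 and 224 CPM against 1049, 1162, 1151 and 1468 CPM. Rhox13, an X-linked homeobox gene of differentiating germ cells, was at 483, 657, 625 and 636 CPM against 149, 122, 259 and 136 CPM. Tex101, a germ cell surface protein, was at 1418, 1898, 1660.0 and 2497 CPM against 192, 275, 274 and 291 CPM.

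Retinoic acid genes went different ways between the sides. Of 17 measured genes, 3 were past 2-fold lower on the meiotic side in all 4 libraries and 1 higher, with a median of -0.41. Cyp26a1, an enzyme that breaks down retinoic acid and a target of its receptors, was at 0.993, 0.308, 0.890 and 0.732 CPM on the meiotic side and 16.9, 24.6, 8.26 and 12.1 CPM on the spermatogonial side. In germ barcodes without a Stra8 UMI it was at 1.06, 0.332, 1.34 and 0.931 CPM. Among these 3 groups the spermatogonial side was highest in every library. Rarb, a receptor gene that retinoic acid induces, was also higher on the spermatogonial side in every library, at a low level, with 5.17, 5.63, 2.12 and 3.30 CPM on the spermatogonial side and 1.06, 0.221, 0 and 0.233 CPM in germ barcodes without a Stra8 UMI. Crabp1, which carries retinoic acid in the cytoplasm, was at 159.8, 145, 141 and 91.5 CPM on the meiotic side against 407, 522, 368 and 556 CPM. Rdh10, an enzyme of retinoic acid synthesis, was higher on the meiotic side, at 20.4, 18.2, 13.3 and 23.9 CPM against 8.55, 4.78, 4.02 and 5.06 CPM, and Aldh1a2, which makes retinoic acid from retinal, was at 46.2, 53.9, 43.9 and 79.7 CPM against 29, 31.1, 19.3 and 29.5 CPM.

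Of 17 genes of the piRNA pathway, which silences transposons, 13 were lower on the meiotic side, 5 of them past 2-fold, with a median of -0.82. Mov10, an RNA helicase, was at 7.45, 6.16, 5.93 and 3.90 CPM on the meiotic side and 57.5, 97.9, 58.2 and 89.5 CPM on the spermatogonial side, whereas Mael was at 482, 478, 578 and 568 CPM against 556, 534, 544 and 552 CPM, without a separation. Of 23 genes of energy metabolism, 6 glycolysis genes were past 2-fold lower, among them Pgam1 at 59.6, 43.8, 76.8 and 62.7 CPM against 312, 402, 267 and 402 CPM. Hspa5, a chaperone of the endoplasmic reticulum, was higher on the meiotic side, at 1485, 1323, 1672 and 1749 CPM against 292, 355, 482 and 339 CPM.

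Among all genes, the 12 most in favour of the meiotic side, ranked by the library with the smallest log2 ratio, included H2-Ab1, Pparg, Spdya, Gal3st1, Pbx3, BC051142, Ly6k, Prss50, Meiob, Prss41 and Tslrn1. H2-Ab1 (chr17:34257689-34269419, plus strand), a beta chain of MHC class II molecules, headed them with 57.1, 59.8, 49.5 and 92.9 CPM on the meiotic side and 1.78, 1.38, 1.27 and 2.20 CPM on the spermatogonial side. Cd74, the invariant chain that accompanies class II molecules in antigen-presenting cells, was at most 1.75 CPM in the Stra8-high barcodes of any library. The 9 macrophage genes summed to 1.99, 6.78, 64.7 and 72.4 CPM on the meiotic side and 5.34, 59.6, 4.45 and 8.04 CPM on the spermatogonial side, higher on the meiotic side in the 7-day culture and at 14 dpp only. The 13 stroma and myoid genes summed to 935, 347, 325 and 367 CPM on the meiotic side and 701, 157, 210 and 119 CPM on the spermatogonial side, higher on the meiotic side in all 4 libraries. The 12 Sertoli genes summed to 540.1, 471, 355 and 553 CPM against 349, 369.5, 261 and 305 CPM, also higher on the meiotic side in all 4. By the median barcode, the stroma and myoid list did not follow its sums. The median barcode of the meiotic side had no UMI of it in any library. On the spermatogonial side this was so in the 7-day culture only. Barcodes of the meiotic side were shallower, so a median of none does not mean that the RNA was absent. The median share of Sertoli UMIs was higher on the meiotic side in all 4 libraries. The part of such RNA in the class II and class I values was not tested. Class I genes were also higher on the meiotic side, with H2-K1 at 533, 437, 528 and 621 CPM against 112, 31.1, 66.3 and 38.8 CPM and H2-D1 at 422, 126, 317 and 302 CPM against 149.6, 19.11, 29.4 and 25.4 CPM. On the spermatogonial side both class I genes were highest in the 2-day culture. Pparg, a nuclear receptor of lipid metabolism, was at 106, 87.8, 53.1 and 79.7 CPM against 2.49, 3.50, 1.91 and 2.20 CPM. Spdya, an activator of CDK2 at meiotic telomeres, was at 110.2, 125, 110.1 and 192 CPM against 4.63, 6.26, 6.56 and 6.50 CPM, and Prss50, a testis serine protease gene, at 995, 1069, 967 and 1207 CPM against 57.9, 43.1, 104 and 40.6 CPM. At the other end stood Pramef12, with 1.99, 5.55, 1.19 and 3.90 CPM against 54.3, 112, 63.9 and 104 CPM, and the germ cell homeobox genes Rhox10 and Lhx8, the latter with 4.47, 3.39, 1.78 and 2.68 CPM against 54.7, 43, 27.3 and 54.5 CPM.

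The Stra8 share of a barcode's UMIs, which is tied to the rule and to depth, was set beside the side as a description. When the Stra8-high barcodes of each library were cut into 3 equal parts by the Stra8 share of their UMIs, the meiotic side made up 14.0%, 16.5%, 27.1% and 19.3% of the lowest part, 28.1%, 32.7%, 43.1% and 54.9% of the middle part and 70.2%, 82.0%, 81.2% and 95.01% of the highest part. After thinning to 2000 UMIs, Prdm9 was seen in 3.50%, 4.12%, 4.35% and 4.76% of barcodes in the lowest part and in 18.2%, 21.02%, 20.7% and 31.8% in the highest. Ccnb1 went from 50.8%, 42.1%, 38.5% and 39.6% to 15.6%, 15.0%, 8.81% and 2.89%. The order of the parts was the same in every library for both genes. Of 12899 genes, 418 (3.24%) were past 2-fold higher in the highest than in the lowest part in all 4 libraries and 292 (2.26%) past 2-fold lower, and 3315 (25.7%) and 4897 (38%) by any amount, with the median gene at -0.11 to -0.30. Recombination genes had 11 of 25 past 2-fold higher and 23 higher by any amount, and axis genes 11 of 20 and 16. Rad21l was at 2.55, 2.66, 3.24 and 4.41 CPM in the lowest part and 16.4, 16.1, 23.8 and 54.4 CPM in the highest, and Ccne2 at 55.2, 86.9, 79.1 and 73.1 CPM and 363, 548, 379 and 689.7 CPM. Depth moved with this order, since the lowest part had a median of 7171, 16182, 10729 and 14614 UMIs and the highest 3200, 6493, 5951 and 4251, and its part in the gene ratios was not tested.

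Against germ barcodes without a Stra8 UMI (317, 774, 571 and 1103 barcodes), differences seen in all 4 libraries were few, and that group itself differed, with Sycp1 at 1303, 296, 2634 and 1109 CPM and Zbtb16 at 29.6, 108, 44.4 and 82.5 CPM. Of 13968 genes, 22 (0.158%) were past 2-fold higher in the Stra8-high barcodes and 81 (0.58%) past 2-fold lower, and 2503 (17.9%) and 2292 (16.4%) by any amount, with the median gene at -0.04 to 0.05. Replication genes stood out by their count, with 27 of 35 higher in all 4 libraries, none lower and a median of 0.48. Mcm2, a subunit of the replicative helicase, was at 192, 188, 174 and 168 CPM in the Stra8-high barcodes and 111, 161, 61.2 and 132 CPM in those without a Stra8 UMI. Prim1, the primase subunit, was at 167, 157, 146 and 178 CPM against 98.4, 83, 41.1 and 107 CPM. Undifferentiated spermatogonia genes were lower for 12 of 20, with 6 past 2-fold and a median of -0.98. Etv5, a target of GDNF signalling in stem cells, was at 2.63, 2.02, 2.46 and 1.64 CPM against 26.4, 18.9, 12 and 13.7 CPM, and Ret, the GDNF receptor kinase, at 3.50, 4.82, 5.15 and 3.14 CPM against 31.7, 34.3, 20.3 and 19.9 CPM. Both were lower in the Stra8-high barcodes of every library by a wide margin. Of 16 genes of differentiating spermatogonia 9 were higher, and of 14 entry genes 7, with medians of 0.53 and 0.60. Rec8 stood out among the latter, at 35.4, 40.8, 41.4 and 31.3 CPM against 12.7, 7.74, 4.81 and 7.68 CPM, while Sycp3 did not, at 1056, 763, 981 and 926 CPM against 2704, 306, 3940.00 and 1231 CPM. Rec8 was thus higher in the Stra8-high barcodes in 4 of 4 libraries, and Sycp3 in the 9 dpp library only. Against germ barcodes with at most 1 Stra8 UMI, no Kit UMI and at least 3 Sycp1 UMIs (257, 505, 646 and 975 barcodes), 31 of 13769 genes (0.225%) were past 2-fold higher in all 4 libraries and 20 (0.145%) past 2-fold lower. Kit is 1 of the 31 by the choice of that group, which has no Kit UMI, and Cyp26a1 and Rec8 led the others. Rec8 was at 9.47, 10.3, 4.57 and 9.05 CPM in those barcodes.

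Culture was then compared with its in vivo partner within the Stra8-high barcodes. In the 2-day culture, 267 of 12899 genes (2.07%) were past 2-fold higher than at 9 dpp and 331 (2.57%) lower. In the 7-day culture, 117 (0.907%) were past 2-fold higher than at 14 dpp and 569 (4.41%) lower. In both pairs, 32 genes (0.248%) were higher and 171 (1.33%) lower. Without the doublet calls the number higher in the 2-day culture was 152 in place of 267. The median gene was at -0.01 and 0.02, and TMM scaling moved it by less than 0.03.

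**Figure D4:**
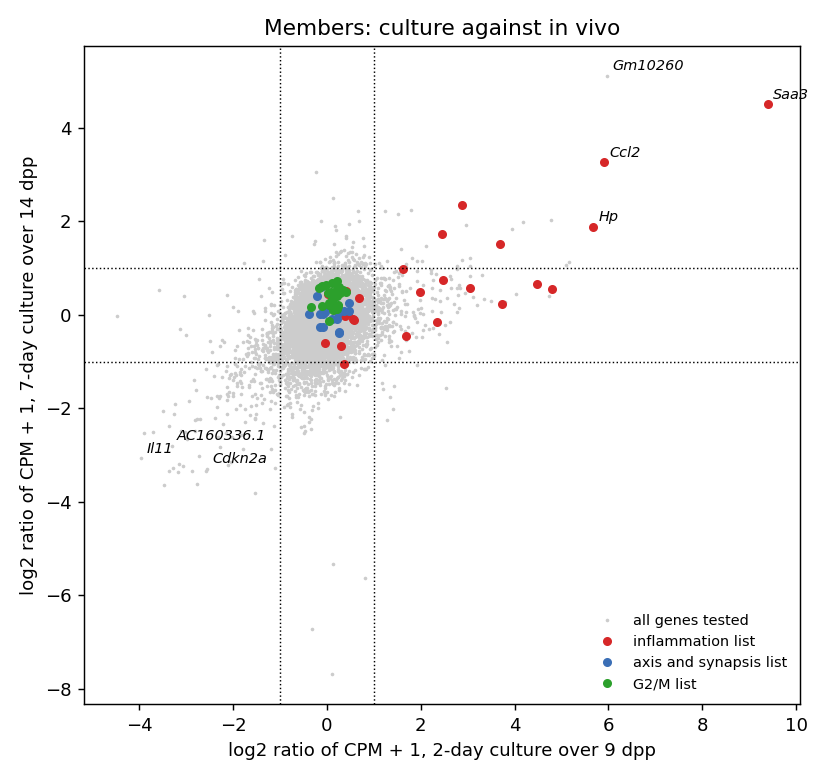
Log2 ratio of CPM + 1 in the Stra8-high barcodes, 2-day culture over 9 dpp (x axis) and 7-day culture over 14 dpp (y axis), 1 point per gene; dotted lines mark 2-fold. Axis and G2/M genes lie within 2-fold in both pairs, inflammation genes reach a log2 ratio of 9.40 and 4.50 (Saa3), and Il11, AC160336.1 and Cdkn2a lie low in both.

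Most meiotic genes, like most genes, were within 2-fold between culture and in vivo. Over all genes, 2.07% were past 2-fold higher and 2.57% lower after 2 days, and 0.907% and 4.41% after 7 days, so counts of 0 in lists of this size are near the share of all genes. Of 20 axis genes none was past 2-fold in either pair, with medians of 0.12 and 0.06, which were -0.03 and -0.15 when each barcode was weighted equally. Of 25 recombination genes none was past 2-fold, with medians of 0.07 and 0.06, and of 14 entry genes none, with medians of -0.15 and 0.09. Rec8 was at 35.4, 40.8, 41.4 and 31.3 CPM, all 4 libraries within 2-fold. Dmc1, the meiotic strand exchange protein, was at 107, 84.9, 132 and 102 CPM. Meioc was at 77.9, 112, 202 and 157 CPM, higher in the 7-day culture and at 14 dpp than in the younger partners. Dmrtb1, a regulator of the switch from spermatogonial division to meiosis, was at 21.2, 41.7, 91.9 and 53.6 CPM, lowest in the 2-day culture and highest in the 7-day culture. Replication genes were within 2-fold save 1 of 35, E2f2, in the 7-day pair, with medians of 0.04 and 0.07. G2 and mitosis genes were also within 2-fold, but 24 of 25 were higher in the 7-day culture than at 14 dpp (median 0.41) and 20 of 25 higher in the 2-day culture than at 9 dpp (median 0.12). Of all 12899 genes, 6656 (51.6%) and 6368 (49.4%) were higher by any amount in these comparisons. Cenpa, the centromeric histone, was at 349.6, 291, 338 and 225 CPM, and the cyclin gene Ccna2 at 238, 214, 266 and 201 CPM. Both were higher in culture than in the in vivo partner.

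The libraries differed in their mixture of sides, whose part in these values was not tested. On the meiotic side alone, 261 of 9642 genes (2.71%) were past 2-fold higher in the 2-day pair and 231 (2.4%) lower, and 302 (3.13%) and 324 (3.36%) in the 7-day pair. On the spermatogonial side alone, of 12221 genes, 252 (2.06%) were higher and 363 (2.97%) lower in the 2-day pair, and 255 (2.09%) and 533 (4.36%) in the 7-day pair. Within the meiotic side the axis list had medians of -0.04 and -0.22 and the recombination list 0.07 and -0.17. Within the spermatogonial side these were 0.20 and 0.23, and 0.24 and 0.10. In the 7-day pair, 15 of 20 axis genes were lower on the meiotic side and 15 of 20 higher on the spermatogonial side, so the sides ran in opposite directions by small amounts. Of all genes on each side, 41.5% were lower on the meiotic side and 54.5% higher on the spermatogonial side by any amount. For the G2 and mitosis list the medians were 0.77 on the meiotic side, with 5 of 25 past 2-fold, and 0.41 on the spermatogonial side. Ccnb1 on the meiotic side was at 143, 138, 129 and 68.8 CPM, lowest at 14 dpp, and Cdt1 at 59.1, 45.9, 49.2 and 24.6 CPM.

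Some retinoic acid genes were lower in culture. Of 17 measured, 3 were past 2-fold lower and none higher in the 2-day pair (median -0.16), and 6 lower and none higher in the 7-day pair (median -0.59), where 2.57% and 4.41% of all genes were past 2-fold lower. Rarg, a retinoic acid receptor, was at 4.38, 15.5, 7.02 and 15.1 CPM, lower in both cultures than in either in vivo library. Cyp26b1, a second enzyme that breaks down retinoic acid, was at 2.75, 8.17, 2.81 and 8.81 CPM and Aldh1a3, an enzyme of its synthesis, at 2.63, 8.56, 1.64 and 7.62 CPM, again with both cultures below both in vivo libraries. Cyp26a1 was at 12.1, 18.1, 5.03 and 8.44 CPM, lower in culture by less than 2-fold. Crabp1 was at 336, 423, 270.4 and 408 CPM. Stra8 itself, on the scale of summed UMIs, was at 1656, 1377, 1342 and 1481 CPM, a level bounded by the rule. Markers of Sertoli cells, the somatic cells that nurse the germ cells, were also lower in places. Of the 12 listed, 8 were measured, and 1 was past 2-fold lower after 2 days (median -0.16) and 5 after 7 days (median -1.10), with none higher, beside the same shares of all genes. The list summed to 402, 395, 297 and 382 CPM. The part of Sertoli RNA in the retinoic acid values was not tested.

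Of 17 undifferentiated spermatogonia genes, 13 were lower in culture in each pair, 3 and 2 of them past 2-fold, with medians of -0.55 and -0.27. Of all genes, 50.6% were lower by any amount in the 2-day culture than at 9 dpp and 48.4% in the 7-day culture than at 14 dpp. Upp1, a uridine phosphorylase gene listed for these cells, was at 8.002, 38.2, 7.13 and 27.6 CPM and Lin28a at 11.6, 26.4, 14.3 and 28.2 CPM, both lower in the cultures. Nanos3, an RNA-binding protein of progenitors, was at 1.75, 20.9, 9.83 and 13.7 CPM, with the 2-day culture lowest. Of 16 genes of differentiating spermatogonia, 13 and 12 were lower, with medians of -0.15 and -0.35. Kit was at 43.9, 46.7, 32 and 49.1 CPM and Ccnd2 at 128, 194, 63.2 and 153 CPM, each lowest in the 7-day culture. Of 17 piRNA genes, 14 were lower in each pair, with medians of -0.14 and -0.43. Of 10 measured DNA methylation genes, 5 and 4 were lower, and Dnmt3b, a de novo methyltransferase of spermatogonia and 1 of the split genes, was at 120.2, 112, 80.5 and 101 CPM.

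Some genes were much lower in both cultures, and those described here were so on both sides of the split. Il11 (chr7:4772373-4782859, minus strand), which encodes a cytokine of the interleukin-6 family, was at 20.9, 340.3, 23.4 and 203 CPM in the Stra8-high barcodes. The lincRNA AC160336.1 (chr14:44544055-44637201, minus strand) was at 227, 2268, 244 and 1701 CPM and was the most abundant of these genes. Cdkn2a (chr4:89274471-89294653, minus strand), whose transcripts encode the CDK inhibitor p16-INK4a and the p53 activator ARF and are counted here as 1 gene, was at 23, 140.2, 25.6 and 259 CPM. In each of these genes both in vivo libraries were at least 5 times the level of both cultures. The log2 ratios were -3.96 and -3.06 for Il11, -3.31 and -2.80 for AC160336.1, and -2.56 and -3.29 for Cdkn2a, 2-day pair first. On the meiotic side Cdkn2a was at 27.8, 148, 29.1 and 258 CPM and on the spermatogonial side at 21.6, 138, 23.3 and 259.6 CPM, nearly the same levels, while Il11 was at 12.9, 129, 11 and 70.7 CPM and 24.6, 418, 33 and 266 CPM. Tmem267, a gene for a membrane protein, was at 44.8, 362, 45 and 288 CPM, and Olfr655, annotated as an olfactory receptor gene, at 43.6, 325, 28.5 and 299 CPM. The same direction was present in germ barcodes without a Stra8 UMI, where Cdkn2a was at 13.8, 119, 5.08 and 175 CPM and Il11 at 5.29, 211, 10.2 and 76.1 CPM. Stroma barcodes had little of either, with 1.05, 2.26, 0.613 and 2.44 CPM of Cdkn2a and 2.37, 1.70, 0.613 and 2.71 CPM of Il11. Sertoli barcodes were also lower in culture, with 1.08, 7.42, 0.776 and 13.8 CPM of Cdkn2a and 2.16, 17.05, 1.16 and 7.45 CPM of Il11. They had 16.6, 180, 21.3 and 158 CPM of AC160336.1. Gm8797 was lower in culture in all kinds of barcodes compared. It was at 14, 153, 10.4 and 115 CPM in Stra8-high, 16.6, 161, 11.4 and 122 CPM in stroma and 19.4, 216, 16.7 and 238 CPM in Sertoli barcodes. The Cdkn2a UMIs were spread over many barcodes: no barcode held more than 1.37% of the Cdkn2a UMIs of its library, and 166, 752, 190 and 1105 Stra8-high barcodes had at least 1. Those of Olfr655 were held by fewer, with 107, 254, 49 and 319 barcodes having at least 1, and the 5 barcodes with the most held 17.8%, 30.4%, 52.5% and 39.1% of them. For Il11 the single barcode with the most held 1.80%, 1.74%, 5% and 2.54%.

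Many inflammation genes were higher in the 2-day culture, and fewer in the 7-day culture. Of 32 listed genes 26 were measured, that is, had at least 50 UMIs over the 4 libraries, and 15 were past 2-fold higher in the 2-day pair (median 1.83) and 6 in the 7-day pair (median 0.47). Over all genes, 2.07% and 0.907% were past 2-fold higher in these pairs. Of these 26, 9 reached 50 UMIs only with those of the 2-day culture, so their higher level there was in part fixed by the minimum. Among the 17 that reached it without that library, 8 and 3 were past 2-fold higher, with medians of 0.67 and 0.36. Among all 31 listed genes with a UMI, 16 and 7 were, with medians of 1.32 and 0.36. Without the doublet calls the 2-day median was 1.22, and on the meiotic side alone the 7-day median was -0.09. Both medians stayed the same with genes without a UMI in 1 library set at the floor of 3 UMIs. Saa3 (chr7:46711998-46715700, minus strand), an acute phase protein, was at 1253, 0.856, 37 and 0.672 CPM. The 2-day culture stood far above all others, and the 7-day culture above both in vivo libraries, whose values rest on 11 and 9 UMIs. Ccl2, a chemokine that attracts monocytes, was at 73.4, 0.233, 14.3 and 0.598 CPM, and complement C3 at 15, 1.17, 10.2 and 1.20 CPM. The 9 dpp value of Ccl2 rests on 3 UMIs (exact Poisson interval 0.0481 to 0.682 CPM) and the 14 dpp value on 8 UMIs of 1 barcode. Saa3 was seen in 994 of 1369 Stra8-high barcodes of the 2-day culture, where the 5 barcodes with the most held 26.6% of its UMIs. In the 7-day culture its 316 UMIs came from 77 of 896 barcodes, with 32.6% in 1 barcode and 69.6% in 5, so that its level after 7 days rests mostly on 5 barcodes. Of the 7-day culture's Ccl2 UMIs, 68.0% came from 1 barcode, and of its C3 UMIs 54.0% came from 5. Nfkbia, the feedback inhibitor of NF-κB, was at 43.9, 12.9, 12.6 and 17.8 CPM and Socs3, the feedback inhibitor of cytokine signalling through STAT3, at 11.5, 2.18, 5.50 and 3.66 CPM. Both were highest in the 2-day culture. Sod2, a mitochondrial enzyme that NF-κB can induce, was at 478, 364, 383 and 392 CPM, within 2-fold in both pairs.

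Stromal RNA moved with this result. The 13 stroma and myoid genes, all of them detected, summed to 777, 203, 247 and 216 CPM in the Stra8-high barcodes, and Mgp, a matrix protein gene of stroma, was at 167, 8.32, 66 and 15.8 CPM. In stroma barcodes the inflammation list summed to 41483, 1520, 8177 and 2009 CPM, and in the Stra8-high barcodes to 2187, 469, 568 and 501 CPM. Germ barcodes without a Stra8 UMI had 4347, 364, 667 and 381 CPM of this list, more than the Stra8-high barcodes in both cultures and less in vivo. Their stroma and myoid genes summed to 1775, 625, 634 and 409 CPM. Among Stra8-high barcodes with at least 5 stroma UMIs (87, 27, 21 and 32 barcodes) the inflammation sum was 13572, 544, 2624 and 858 CPM. Among those without a stroma UMI (586, 513, 571 and 894 barcodes) it was 868, 461, 490 and 513 CPM. In both cultures the summed list was thus lower where stroma UMIs were absent. At 9 dpp and 14 dpp the sum was at about the same level as in all Stra8-high barcodes. Sod2 alone was at 457, 367, 396 and 418 CPM in barcodes without a stroma UMI, so the in vivo sums there are mostly Sod2. The 2-day culture still had the highest sum. These sets also differed in depth, with a median of 4330.5, 7181, 7016 and 4787 UMIs without a stroma UMI. With at least 5 stroma UMIs the median was 8634, 20126, 12396 and 11802 UMIs, and the part of depth was not tested. In barcodes without a stroma UMI 11 of 26 genes were past 2-fold higher in the 2-day pair (median 0.74) and 3 in the 7-day pair (median 0.15). The share of all genes past 2-fold in these barcodes is not given here, which limits the reading of the counts. Saa3 was at 240.2, 1.25, 10.6 and 0.150 CPM there, against 30710.00, 0.847, 3250.00 and 1.35 CPM in stroma barcodes and 499.6, 0.195, 40.3 and 0 CPM in Sertoli barcodes, 0 meaning no UMI. How much of the list in Stra8-high barcodes is free RNA was not tested.

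**Figure D5:**
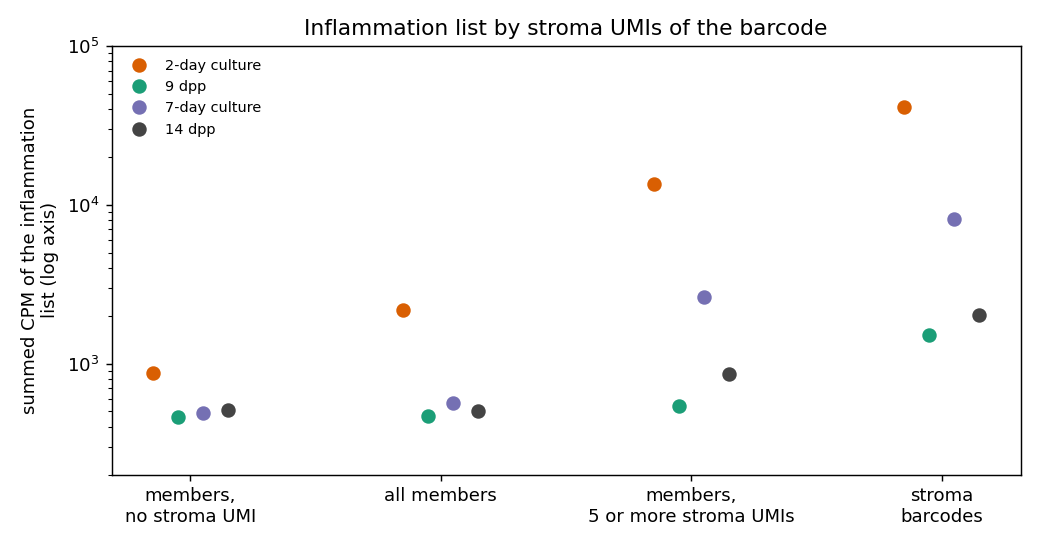
Summed CPM of the inflammation list (log axis) in Stra8-high barcodes without a stroma UMI, in all of them, in those with at least 5 stroma UMIs and in stroma barcodes, 1 point per library. The 2-day culture is highest in each set, at 868, 2187, 13572 and 41483 CPM, and the sum rises with stroma UMIs in the cultures. Sod2 alone is at 457 CPM in the first of these values and Saa3 alone at 30710 CPM in the last.

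Among interferon-stimulated and antigen presentation genes, some were higher in the 2-day culture. Of 21 measured, 8 were past 2-fold higher in the 2-day pair (median 0.68) and 1 in the 7-day pair (median -0.13), and the difference between the pairs was not tested. Over all genes, 2.07% and 0.907% were past 2-fold higher, so the count of 1 in a list of this size is near that share. Of the 21, 6 reached 50 UMIs only with those of the 2-day culture, and among the 15 others 4 and 1 were past 2-fold higher, with medians of 0.55 and -0.16. Without the doublet calls the 2-day median was 0.22. The list summed to 1074, 410, 639 and 541 CPM in the Stra8-high barcodes. In germ barcodes without a Stra8 UMI it summed to 2621, 392, 1166 and 603 CPM, again with the 2-day culture highest. B2m, the light chain of MHC class I, was at 251, 65.9, 113 and 59.2 CPM, and Ifitm3, an antiviral membrane protein, at 172, 3.81, 23.4 and 10.2 CPM, each highest in the 2-day culture. In barcodes without a stroma UMI 5 of 21 genes were past 2-fold higher in the 2-day pair (median 0.53) and none in the 7-day pair, again without a share of all genes beside them.

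Early response, stress and cell death lists had medians of 0.02 to 0.17, and energy metabolism genes had lower ones. Of 23 early response and heat shock genes, 3 and 1 were past 2-fold higher, with medians of 0.09 and 0.11, where 2.07% and 0.907% of all genes were higher. Junb, a subunit of AP-1, was at 42.9, 12.6, 26.3 and 12.5 CPM, higher in both cultures. Of 25 stress and cell death genes, 1 and 2 were past 2-fold higher and 1 and 0 lower, with medians of 0.02 and 0.17. Atf4, the transcription factor of the integrated stress response, was at 64.9, 39, 79.9 and 36.2 CPM, with both cultures above both in vivo libraries. Of 23 energy metabolism genes, 3 and 4 were past 2-fold lower and 1 and 0 higher, with medians of -0.30 and -0.22, where 2.57% and 4.41% of all genes were lower. Hk2, a hexokinase, was at 12.1, 29.5, 10.2 and 33.9 CPM, and Eno1, the enolase of glycolysis, at 58.8, 171, 41.5 and 90.6 CPM, both lower in the cultures. Of 14 measured pachytene genes, 1 was past 2-fold higher and 1 lower in the 2-day culture than at 9 dpp (median -0.17), and 0 were higher and 5 lower in the 7-day culture than at 14 dpp (median -0.33), beside the same shares of all genes.

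Gm10260 (chr13:97760072-97760632, minus strand) had the largest log2 ratio among all genes in the pair where its ratio was smaller, 5.11 after 7 days and 5.97 after 2 days of culture, at 319.9, 4.12, 191 and 4.56 CPM. It is annotated as protein coding and is a near-identical copy of the ribosomal protein gene Rps18: with the annotated transcripts laid side by side without gaps, 540 of 547 bases were the same. Its value is therefore uncertain, and how the counting assigned reads between the pair was not tested. Rps18 was at 2917, 3391, 2330.00 and 3173 CPM, lower in both cultures. Stroma barcodes showed the same for Gm10260, with 409, 9.18, 317 and 4.87 CPM.

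Time was compared in vivo and in culture. At 14 dpp, 68 genes (0.527%) were past 2-fold higher than at 9 dpp and 100 (0.775%) lower. In the 7-day culture, 85 (0.659%) were higher than in the 2-day culture and 582 (4.51%) lower. Only 7 genes (0.0543%) were higher and 13 (0.101%) lower in both. The testis histone gene Hist1h2aa was at 17.4, 18.1, 45.1 and 43.4 CPM, higher at the later time in both settings. Cebpb, a transcription factor of the inflammatory response, was at 22.6, 22.3, 7.02 and 4.86 CPM and lower at the later time in both. The Leydig cell genes Cyp11a1 and Hsd3b1 were also higher at the later times, but 88.8% and 86.1% of their UMIs in the 7-day culture came from 1 barcode. Entry genes were higher at the later time for 11 of 14 in vivo (median 0.30) and 12 of 14 in culture (median 0.36), and axis genes for 16 and 15 of 20 (medians 0.27 and 0.31). Of all genes, 44.8% were higher by any amount at the later time in vivo and 49.2% in culture, with the median gene at -0.04 and -0.01. The larger share of the meiotic side at the later times moved with these lists, and its part in them was not tested. Inflammation genes were lower in the 7-day than in the 2-day culture for 26 of 26 (median -1.01), where 50.8% of all genes were lower. Since 9 of these reached the minimum of 50 UMIs only with those of the 2-day culture, the other 17 are given too, of which 17 were lower (median -0.94). Of all 31 genes with a UMI, 28 were lower and 2 higher.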

How the data were processed

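Single-cell RNA was sequenced with the Chromium 3′ v2 chemistry, per the labels' protocols. The authors deposited UMI counts per gene and barcode, made with Cell Ranger 3.0.2 on mm10, per the submitters' processing notes, and no further normalization is recorded in the sources used here. Counts of a group of barcodes were summed within a library and scaled to 1000000 UMIs (CPM). Log2 ratios used CPM + 1 and genes with at least 50 UMIs, without mitochondrial genes and the 8 genes of the rule. With 1 library per group nothing was tested. Intervals are at 95% (exact Clopper-Pearson, exact Poisson or Katz) and cover counting error only, and 3 UMIs served as the floor.

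Doublets were called with Scrublet through scanpy 1.11.5 at an expected rate of 6% and kept. To compare shares of barcodes across depths, barcodes were thinned to 2000 UMIs and shallower ones left out. Python 3.11.15, numpy 2.4.6, pandas 2.3.3, scipy 1.17.1, matplotlib 3.10.9 and edgeR 4.0.16 (for TMM factors only, in R 4.3.3) were used, and the calculations were tested on simulated data. The members, the 25 gene lists and the alternatives were chosen with earlier results of these data known. Named were genes of a list by role, the 12 higher and 12 lower genes with 1 sign in every library or pair, ranked by their smallest ratio, and 8 each over time. A comparison with germ barcodes with at least 2 Kit UMIs, no Stra8 UMI and at most 1 Sycp1 UMI was not made, since 24 barcodes in all met its rule. Of 31053 identifiers, 30934 were in GENCODE M21, and promoter windows are from RefSeq (GRCm38.p6). Alternatives were other Stra8, gene and mitochondrial limits, doublet removal, thinning, another denominator, constants of 0.1 and 10, UMI minimums of 20 and none, TMM factors, equal weights for barcodes, and, chosen after seeing the data, each side alone and barcodes without a stroma UMI.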

Additional observations from a re-analysis of the deposited data

Results flagged for a closer look

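Tagln, a smooth muscle and peritubular myoid cell gene, had opposite signs in the 2 pairs. It was at 28.3, 6.77, 2.92 and 7.25 CPM in the Stra8-high barcodes, with a log2 ratio of 1.91 for the 2-day culture over 9 dpp and -1.07 for the 7-day culture over 14 dpp. Tyrobp, a macrophage gene, ran the other way, at 0.625, 4.51, 6.78 and 2.62 CPM, with -1.76 after 2 days of culture against 9 dpp and 1.11 after 7 days against 14 dpp. Each value is from 1 library and neither difference between the pairs was tested.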

How the results depend on the processing

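For the 2-day culture over 9 dpp (0.29) the log2 ratio of the share of Stra8-high barcodes was 0.48 with at least 3 Stra8 UMIs, -0.13 with at least 8, 1.03 after thinning, 0.43 with at least 1000 genes and at most 10% mitochondrial UMIs, -0.0024 over all kept barcodes and 0.068 for the meiotic side. For the 7-day culture over 14 dpp (0.01) it was -0.20 with at least 8 UMIs, 0.11 with the stricter filter, -0.26 over all kept barcodes and -0.15 for the meiotic side. For 14 dpp over 9 dpp (-0.02) it was 0.19 after thinning, 0.18 over all kept barcodes, 0.35 for the meiotic and -0.41 for the spermatogonial side. For the 7-day over the 2-day culture (-0.30) it was -0.12 with at least 8 UMIs, -0.77 after thinning, -0.073 over all kept barcodes, 0.13 for the meiotic and -0.70 for the spermatogonial side.

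Counts of genes past 2-fold followed the constant added to CPM. With 0.1 they were 421 higher and 531 lower after 2 days of culture, 226 and 969 after 7 days, and 57 and 181 against germ barcodes without a Stra8 UMI. With 10 they were 68 and 77, 11 and 79, and 1 and 7. Without doublet calls the 2-day pair had 152 higher. In the 7-day pair the meiotic side had 302 higher and 324 lower, and the spermatogonial side 255 higher.

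The inflammation median of the 2-day pair was 0.83 with a constant of 10, 1.32 without a UMI minimum, 0.67 with the minimum reached without the 2-day culture (chosen after seeing the data) and 1.22 without doublet calls, and the interferon median 0.22 without doublet calls. The axis median of the 2-day pair was -0.033 with barcodes weighted equally, -0.051 with at least 8 Stra8 UMIs and -0.039 on the meiotic side. In the 7-day pair with equal weights, medians were -0.16 for entry, -0.15 for axis, -0.14 for recombination, 0.56 for mitosis and -0.17 for differentiating spermatogonia genes, and with at least 8 Stra8 UMIs 0.18 for entry genes. On the meiotic side they were -0.22, -0.22, -0.17, 0.77 and 0.084 in the same order, -0.091 for inflammation, -0.065 for early response and 0.090 for energy metabolism genes. On the spermatogonial side they were 0.43 for entry and 0.23 for axis genes. Dlx1 against germ barcodes without a Stra8 UMI at 9 dpp was -0.28 after thinning with at least 2 Stra8 UMIs, in place of 1.15. The cause of these shifts was not tested. Another 19 list medians moved beyond the limits used and kept their sign: 10 of early response genes (0.029 to 0.40), 5 of retinoic acid genes (-0.71 to -0.30), 2 of piRNA genes (-0.30 and -0.022), 1 of DNA methylation genes (0.43) and 1 of cyclin genes (0.27). Of the remaining values, 38 gene counts, 291 list medians and 13 share ratios stayed within these limits. Of the values of single named genes, 521 did so, 126 moved beyond them and 1, that of Dlx1, changed sign.

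The Stra8-high barcodes of the 2-day culture were the shallowest, which limits what a fixed UMI count can compare. No paired analysis was possible because each group is 1 library.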

Other observations

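Further genes separated the Stra8-high barcodes from germ barcodes without a Stra8 UMI in every library. Dusp6, a phosphatase that limits ERK signalling, was at 6.75, 4.59, 3.39 and 4.18 CPM against 45.5, 55.6, 20.6 and 34.9 CPM, and Id4, an inhibitor of differentiation in spermatogonial stem cells, at 5.25, 9.88, 4.80 and 5.83 CPM against 22.2, 64.3, 31.5 and 25.2 CPM. Both were lower in the Stra8-high barcodes. In the other direction, Crxos, a homeobox gene, was at 8.38, 20.8, 5.97 and 10.1 CPM against 0, 6.3, 1.60 and 1.28 CPM, and Nrtn, a ligand of the GDNF family, at 51.6, 53.8, 53.9 and 69.9 CPM against 20.1, 24.9, 9.09 and 19 CPM.

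The 5 erythroid genes summed to 138, 144, 0.585 and 437 CPM in the Stra8-high barcodes. Of the Hba-a1 UMIs, 79.3% at 2 days of culture, 93.0% at 9 dpp and 52.0% at 14 dpp came from 1 barcode each.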
